A study of Mus musculus with 7 samples.

Results

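Cytosolic ribosomal protein genes encode the protein parts of the ribosomes that translate the cell's nuclear mRNAs. They were taken by name: every probe set whose platform annotation gives 1 gene symbol made of Rpl or Rps and a number, plus Rplp0, Rplp1, Rplp2 and Rpsa, without the Rps6k kinases and without pseudogene symbols. This gave 100 of 45101 probe sets and 46 of the 18194 genes with a symbol of their own, 24 of the large subunit and 22 of the small subunit. Of these, 94 probe sets and 45 genes were bright enough to be tested. The gene left out, Rps16, had only a background signal on its sole probe set with a single symbol, and 1 dim probe set each of Rpl27a, Rps3, Rps4x, Rps6 and Rpsa was left out too. Another 110 probe sets carry a ribosomal protein symbol together with further symbols. They are not named here, and Rplp1, Rpl3 and Rpl5 were not analysed for that reason.

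A ribosome holds 1 copy of nearly every ribosomal protein, so cells keep the products of these genes in step. Much of this happens in translation. Many of the mRNAs start with a C followed by a run of pyrimidines, the 5' terminal oligopyrimidine or TOP run, through which growth signals set how well they are translated. Proliferating cells such as embryonic stem cells hold these mRNAs among their most abundant.

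The libraries came from D3 mouse embryonic stem cells, an established line. Wild type cells gave 2 libraries and cells without calreticulin gave 5, after genomic ablation of Calr, whose product folds glycoproteins and stores calcium in the endoplasmic reticulum. The series asks which transcripts differ genome-wide when calreticulin is missing. Each library was a pool of at least 3 cultures harvested together, the labels call the libraries biological replicates, and they name no treatment. They do not say whether the knockout cells were 1 clone or several, so the p-values measure only the spread between these libraries. Total RNA was labelled and hybridised to Affymetrix Mouse 430 2.0 arrays, which report an intensity, the signal, for each probe set.

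The Calr signal was 12460 and 10840 in wild type libraries 1 and 2, and 858, 1055, 1064, 577 and 1006 in knockout libraries 1 to 5, a difference of -3.68 on the log2 scale (limma adjusted p = 0.00595). The summed signal of 11 measured embryonic stem cell markers, of 12 listed, was 90555 and 110419 in wild type and 123135, 86705, 91599, 102006 and 96723 in knockout libraries. Their medians against the wild type mean were 0.34, -0.20, -0.18, 0.17 and -0.04 in knockout libraries 1 to 5, so these markers too were highest in library 1, and their part in the results was not tested. Knockout libraries 2 and 3 stood apart from the rest: their correlation over all tested probe sets was 0.985, but only 0.843 to 0.902 against the remaining libraries, whose own pairs gave 0.920 to 0.972. The summed signal of 10 measured fibroblast markers, of 12 listed, was 8423 and 5491 in wild type and 2317, 8711, 7763, 5455 and 2242 in knockout libraries, so it also varied within the groups. The medians of these fibroblast markers against the wild type mean were -0.96, 1.09, 0.89, -0.31 and -0.85 in knockout libraries 1 to 5. They were 0.21 and -0.21 in wild type libraries 1 and 2. Of the endoderm, neural ectoderm and mesoderm markers, 6, 4 and 4 were tested, with median differences of -0.51, -0.49 and -0.65. Each of these sets had 1 marker above 0, and limma called 0. The part of all these markers in the results was not tested. Of 4 red blood cell markers listed, 2 had a probe set with a single symbol, and neither was bright enough to be tested. RNA came from whole populations, in which fewer cells of a type and less RNA per cell cannot be told apart.

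The start sites of the ribosomal protein genes are shown first, because the TOP run is the sequence feature most of the family is known for. Whether the run bears on the array signals was not tested. RefSeq promoter windows of the assembly GRCm38.p6 covered 40 of the 46 genes. A run was defined as C at the annotated start followed by at least 4 bases that are each C or T, searched on the gene's own strand only. It was present in 8 of the 40 genes, against 813 of all 27025 genes in the same table (3.01%). Each line below gives 30 bases, 5' to 3', of which 10 lie before the annotated start, and capitals mark the run.
Rps6 (chr4:86857348-86857377, minus strand): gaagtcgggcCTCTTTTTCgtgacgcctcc
Rpl14 (chr9:120571507-120571536, plus strand): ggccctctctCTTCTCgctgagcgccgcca
Rps18 (chr17:33955646-33955675, minus strand): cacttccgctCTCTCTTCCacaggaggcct
Rps27 (chr3:90213629-90213658, minus strand): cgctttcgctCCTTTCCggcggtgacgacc
Rplp2 (chr7:141447641-141447670, plus strand): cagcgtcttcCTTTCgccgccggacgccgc
Rpl38 (chr11:114668570-114668599, plus strand): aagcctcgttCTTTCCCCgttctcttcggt
Without the run at the annotated start are, for comparison, Rpsa, the X-linked Rps4x and the muscle paralog Rpl3l.
Rpsa (chr9:120127756-120127785, plus strand): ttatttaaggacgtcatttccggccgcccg
Rps4x (chrX:102189372-102189401, minus strand): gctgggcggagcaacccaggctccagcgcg
Rpl3l (chr17:24727816-24727845, plus strand): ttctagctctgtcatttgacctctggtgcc
The other genes with a run were Rpl35 and Rps10. The median difference between knockout and wild type was -0.22 over the 8 genes with the run and -0.17 over 31 tested genes without it, on the log2 scale. After quantile normalization, which gives every array the same distribution of signals, these medians were -0.04 and -0.01. Where the letters were not found, this says only that they are not at the start that RefSeq annotates.

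On the arrays most of these genes were very bright. The probe set that stood for Rps18, a small subunit protein, had the highest signal of the whole array in all 7 libraries, at 29664 and 30561 in wild type and 35690, 25552, 26942, 26749 and 24234 in knockout libraries. Of the 132 genes above the 99th percentile of mean signal, 35 were ribosomal protein genes. Brightness depends on the probes as well as on the mRNA, so it does not rank the genes by their expression. The median signal over the 45 genes was 20427 and 21215 in wild type libraries, then 25717, 16766, 16447, 19682 and 16748 in knockout libraries 1 to 5. Knockout library 1 was therefore above both wild type libraries and the other 4 were below both.

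**Figure D1:**
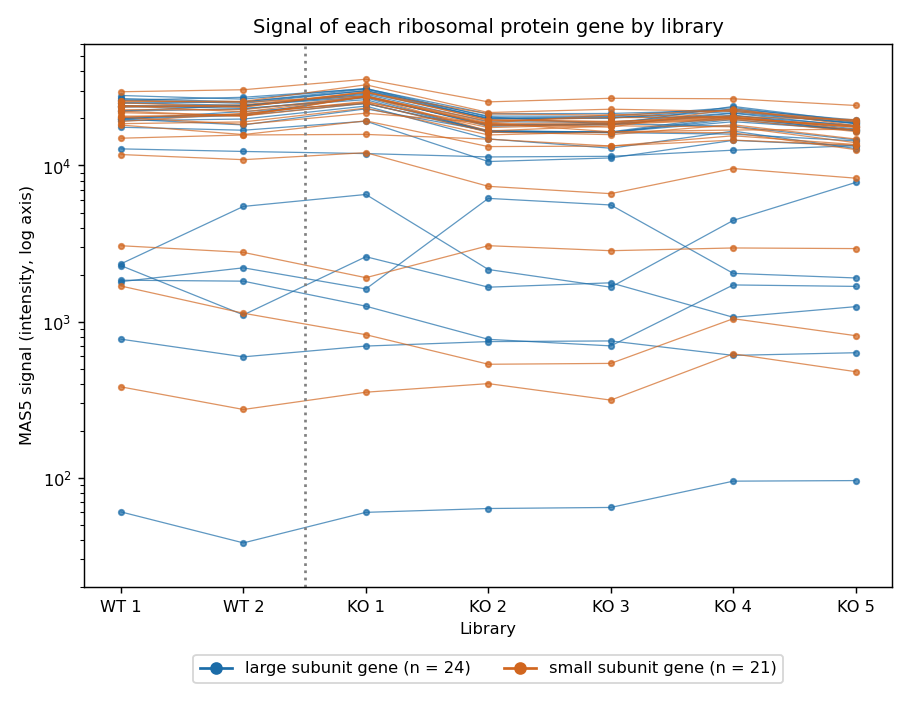
MAS5 signal (log axis) of the probe set that stands for each of the 45 tested ribosomal protein genes, in the 2 wild type (WT) and 5 knockout (KO) libraries. Each line joins 1 gene, coloured by subunit. The 36 brightest genes form a narrow band that is highest in knockout library 1, and 9 dimmer genes lie apart from it.

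No ribosomal protein gene passed the threshold. Differences are knockout minus wild type of log2(signal + 20.2), a scale that understates the change of dim probe sets. Over genes, limma called 0 of 45 members, against 2 of 13120 genes in all (0.0152%). Over probe sets it called 0 of 94, against 8 of 27022 (0.0296%). At an unadjusted p under 0.05 there was 1 member gene, against 8.06% of all genes, and there were 2 member probe sets, against 8.42% of all probe sets. The lowest adjusted p from limma was 0.589 among the genes and 0.575 among the probe sets.

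The direction was mostly negative and small. The median difference was -0.18 over the 45 genes (interquartile range -0.23 to -0.10), with 38 below 0 and 7 above (1 of them Rpl3l, which passed the filter on low values only through its knockout signals), but after quantile normalization it was -0.01 with 19 above 0. Over all tested genes the median was -0.004, or -0.09 after quantile normalization, and 50.3% were below 0. The standard error of a single member's difference had a median of 0.22, against 0.32 over all genes, so the median difference was smaller than the error of most members. The large subunit had a median of -0.20 with 19 of 24 genes below 0, and -0.03 after quantile normalization. The small subunit had a median of -0.14 with 19 of 21 genes below 0, and 0.00 after quantile normalization.

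**Figure D2:**
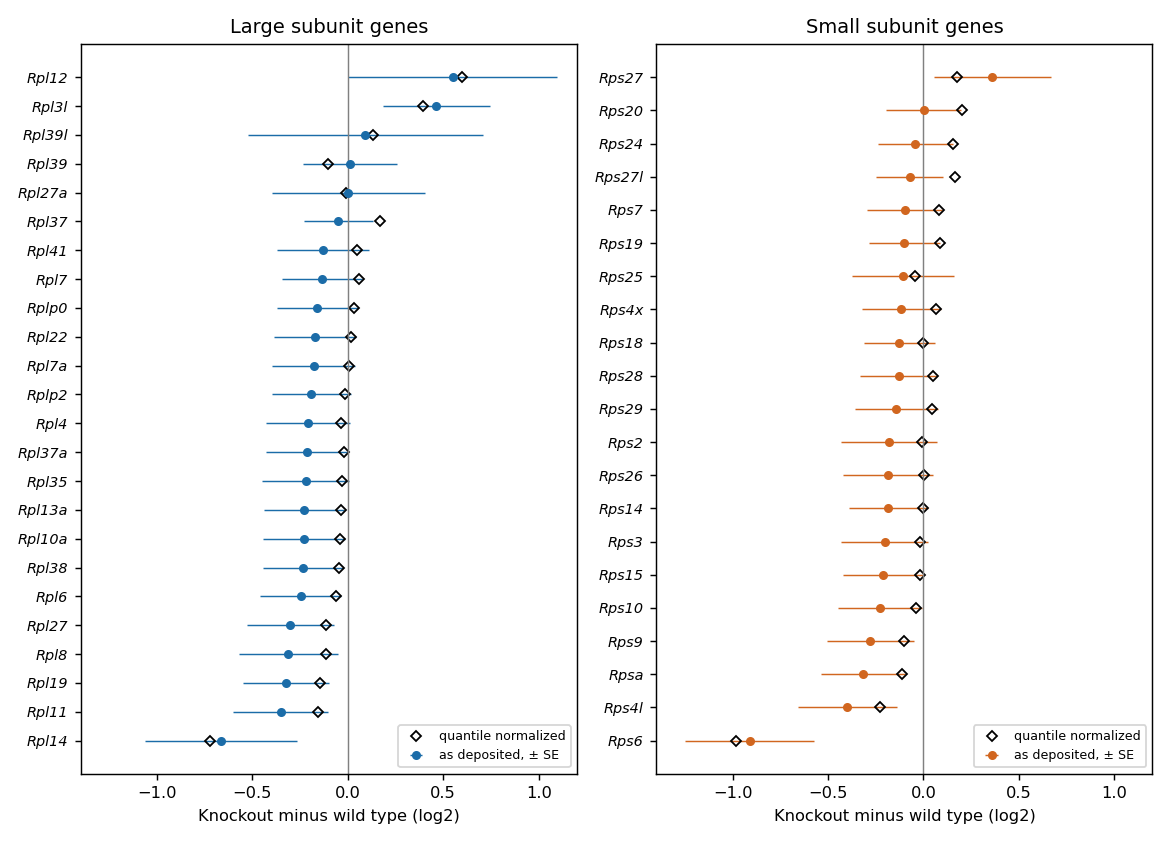
Knockout minus wild type difference on the log2 scale for each tested ribosomal protein gene, large subunit (24 genes, left) and small subunit (21 genes, right). Filled circles with bars are the deposited signals with the standard error from limma, and open diamonds are the differences after quantile normalization. Most circles lie just below 0 and most diamonds near 0, while Rps6 and Rpl14 stay low under both.

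The small difference between the groups covers a large one among the knockout libraries. Relative to the wild type mean, the median over the 45 genes was 0.25 in knockout library 1 and -0.31, -0.31, -0.19 and -0.36 in libraries 2 to 5, while the wild type libraries lay at 0.01 and -0.01. In library 1, 37 of the 45 genes were above both wild type signals, against 26.3% of all tested genes. In libraries 2, 3, 4 and 5, 38, 38, 36 and 37 genes were below both, against 39.6%, 38.4%, 28.9% and 31.8% of all genes. In 33 genes all of libraries 2 to 5 lay below both wild type signals, against 10.9% of all genes. In 31 of these 33, library 1 was also above both wild type signals. The share of all genes with this joint pattern was not counted. Both subunits had library 1 above the wild type mean and the other 4 below it, with medians of 0.24, -0.35, -0.34, -0.17 and -0.41 for the large and 0.25, -0.26, -0.20, -0.20 and -0.36 for the small subunit.

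Without knockout library 1 the median difference was -0.30, and 13 of the 45 genes had an unadjusted limma p under 0.05, against 10.5% of all genes in the same fit, with none called after adjustment. Library 1 is the one in which these same genes were high, and they move together, so the 13 are not separate results. Leaving out knockout library 2, 3, 4 or 5 instead left 1 of the 45 at this p in each fit. The share of all genes was not counted for those fits. Without knockout libraries 2 and 3, the pair that stood apart, the median difference was -0.11 with 39 genes below 0. After quantile normalization the medians in knockout libraries 1 to 5 were 0.00, -0.00, -0.03, -0.01 and -0.02.

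Other bright genes also had a positive median in knockout library 1 and negative ones in the other 4. The 97 other genes above the 99th percentile of mean signal had medians of 0.14, -0.43, -0.41, -0.15 and -0.34 in knockout libraries 1 to 5 and a median difference of -0.24, or -0.03 after quantile normalization. The 99th percentile of the signals was also taken without the members and the several-symbol ribosomal protein probe sets. It was 10235 and 9542 in wild type and 9446, 8095, 7933, 9122 and 8483 in knockout libraries. By this measure library 1 was just below both wild type arrays and libraries 2 to 5 were further below. Ribosomal proteins that the naming rule leaves out, such as Rps3a1, were not taken out of this percentile or of the 97 genes. A shift shared by the most abundant mRNAs and a difference in how far the top signals of an array spread cannot be told apart here. The members are among the brightest genes of every array (median percentile 99.8), so quantile normalization brings their common level close to equal by construction.

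The bright members also moved alike among themselves. The 36 genes with a mean log2 value above 13 had differences from -0.40 (Rps4l) to 0.003 (Rps20), with a standard deviation of 0.09 between genes, and 26 of them lay within 0.1 of the family median. In 35 of them knockout library 1 had the highest signal of the 7, a count that was not made over all genes or over other bright genes. The exception was Rpl37, a large subunit protein, at 12777 and 12300 in wild type and 11920, 11347, 11449, 12534 and 13385 in knockout libraries. The interquartile range of the differences was 0.13 over all 45 genes. It was 0.29 over the other genes above the 99th percentile. It was 0.41 to 0.51 over the biogenesis, mitochondrial ribosomal protein, initiation factor and proteasome genes described below. These sets were dimmer, and the part of brightness in the spread was not tested.

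Among large subunit genes the most negative differences after Rpl14 belonged to Rpl11, Rpl19 and Rpl8. Rpl11 joins the 5S ribosomal RNA and binds Mdm2 when ribosome assembly fails. Its signal was 17577 and 16820 in wild type and 19220, 10604, 11182, 14490 and 13363 in knockout libraries, a difference of -0.35 ± 0.25 (SE, 2 and 5 libraries, limma adjusted p = 0.627). Library 1 was above and the other 4 were below the wild type signals, so the groups overlapped. Without knockout libraries 2 and 3 the difference was -0.15. Rpl19 and Rpl8, both core large subunit proteins, differed by -0.32 ± 0.23 and -0.31 ± 0.26. Rpl27 and Rpl38, the brightest of the large subunit, differed by -0.30 ± 0.23 and -0.23 ± 0.21. Rpl38 is known for its part in translating Hox mRNAs in the embryo. Rpl41, the smallest ribosomal protein, differed by -0.13 ± 0.24, or 0.05 after quantile normalization.

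The stalk of the large subunit, which recruits elongation factors, is built from Rplp0 and pairs of Rplp1 and Rplp2. Rplp0 had signals of 19839 and 18193 in wild type and 23061, 16660, 16247, 15873 and 14373 in knockout libraries, a difference of -0.16 ± 0.21, or 0.03 after quantile normalization. Rplp2 had 26371 and 25004 in wild type and 30202, 20714, 20690, 23481 and 18876 in knockout libraries, a difference of -0.19 ± 0.21. Both stalk genes were highest in knockout library 1 and below the wild type pair in the other 4, as most of the family was.

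In the small subunit, Rpsa, also known as the laminin receptor, had signals of 25860 and 25433 in wild type and 27874, 18286, 17594, 23086 and 17977 in knockout libraries, a difference of -0.31 ± 0.22 (limma adjusted p = 0.622). Rps18, which lies at the head of the subunit, differed by -0.13 ± 0.19 and by 0.00 after quantile normalization. Rps9 differed by -0.28 ± 0.23 and Rps29 by -0.14 ± 0.22. Least different was Rps20, at 21796 and 20859 in wild type and 27864, 18735, 21109, 20499 and 19683 in knockout libraries, a difference of 0.003 ± 0.20. Rps24 was also close to 0, at -0.04 ± 0.20. Mutations of Rps24 are known from Diamond-Blackfan anaemia, an inherited failure to make red blood cells. After quantile normalization Rps20 and Rps24 lay at 0.20 and 0.16.

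Rps6 is the small subunit protein that S6 kinase phosphorylates in response to growth signals. Its tested probe set had a signal of 1691 and 1132 in wild type and 825, 534, 540, 1045 and 813 in knockout libraries. Every knockout signal was below both wild type signals, with library 4 close to the lower of them. The difference was -0.91 ± 0.34, the most negative of the family, with an unadjusted p of 0.0231 and a limma adjusted p of 0.589. It was -0.98 after quantile normalization, and -0.63 without wild type library 1 or without knockout libraries 2 and 3. Rpl14, a large subunit protein, had 1843 and 1817 in wild type and 1256, 771, 700, 1718 and 1682 in knockout libraries. All 5 were lower here too, but libraries 4 and 5 lay just under the wild type pair, and the difference of -0.67 ± 0.40 (limma adjusted p = 0.592) was -0.25 without libraries 2 and 3. These were the only 2 members of 45 with all knockout signals below both wild type signals, against 7.44% of all genes. No member had all 5 above, against 6.41% of all genes. Both genes were measured here by a dim probe set and also have a bright probe set that carries further symbols.

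All positive differences but that of Rps20 belonged to dim members. Of the 9 dim members 7, Rpl12 and Rps27 among them, also have a bright probe set that carries further symbols. The values below come from their dim probe set alone, so they do not give the level of these genes. Rpl12, a protein at the base of the stalk, had signals of 1804 and 2212 in wild type and 1620, 6157, 5587, 2038 and 1905 in knockout libraries. Only libraries 2 and 3 were above the wild type pair, and the difference of 0.55 ± 0.55 was -0.11 without them. Rps27, a zinc-binding small subunit protein, had 382 and 274 in wild type and 353, 401, 315, 622 and 478 in knockout libraries, a difference of 0.36 ± 0.31 with overlapping groups, or 0.14 without wild type library 2. Its paralog Rps27l, a p53 target, was bright and differed by -0.07 ± 0.18, or 0.16 after quantile normalization.

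Some members are paralogs of other ribosomal protein genes. Rpl39l, a testis-enriched copy of Rpl39 that embryonic stem cells also express, had signals of 2346 and 5470 in wild type and 6523, 2158, 1663, 4451 and 7790 in knockout libraries. The wild type libraries differed from each other more than the groups did, and the difference was 0.09 ± 0.61. Its sign was negative without wild type library 1, without knockout library 1 and without knockout library 5. Rpl39 itself, which is X-linked, had 772 and 595 in wild type and 698, 745, 753, 608 and 632 in knockout libraries, a difference of 0.01 ± 0.25, or -0.10 after quantile normalization. Rpl39 also has a bright probe set that carries further symbols, so this dim probe set does not give its level. Rpl3l, a paralog of Rpl3 known from striated muscle, was near background at 60.5 and 38.3 in wild type and 60.1, 63.6, 64.6, 95.2 and 96.0 in knockout libraries, and no difference is read from it. Its mean log2 value of 6.43 lay just above the filter at 6.41, which its wild type values of 6.33 and 5.87 did not reach, so it passed only through the knockout libraries. Rps4l, a relative of Rps4x, had 11754 and 10897 in wild type and 12084, 7356, 6603, 9564 and 8295 in knockout libraries, and its difference of -0.40 ± 0.26 was the most negative of the bright members and -0.20 without knockout libraries 2 and 3. The X-linked Rps4x had 20427 and 21384 in wild type and 25717, 17489, 18308, 19682 and 16497 in knockout libraries, a difference of -0.12 ± 0.21, or 0.07 after quantile normalization. Ribosomal protein genes have many processed copies in the genome with near-identical sequence, so signals of one gene can include those of its copies, above all for the 39 tested probe sets whose names end in _x_at and the 3 ending in _s_at.

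Different probe sets of the same gene did not give the same picture. Of the 45 genes, 19 had more than 1 tested probe set, with up to 6 for a gene. In 10 of them a bright probe set was accompanied by dim ones with a mean log2 value under 12, 16 in all. The dim probe sets had a median difference of 0.48, with 13 above 0 and 3 below, and 0.35 after quantile normalization. Among the 13, probe set 1421838_at of Rps18 had wild type log2 values of 6.25 and 6.52, around the filter at 6.41. Its mean of 6.85 passed through the knockout values, which reached 7.80 in library 3. Against the wild type mean, the medians of the 16 dim probe sets were 0.02, 0.89, 1.0, -0.11 and 0.29 in knockout libraries 1 to 5. In each of libraries 2 and 3, 13 of the 16 were above both wild type signals, against 35.5% and 37.4% of all tested genes. Those shares are over genes, each by its brightest probe set, and are not matched to the dim probe sets in brightness. The median signal of the whole array was also highest in libraries 2 and 3, at 114 and 125, against 107 and 92.6 in wild type. Without these 2 libraries the median difference of the 16 was 0.01, with 8 below 0. None of them was called by limma.

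**Figure D3:**
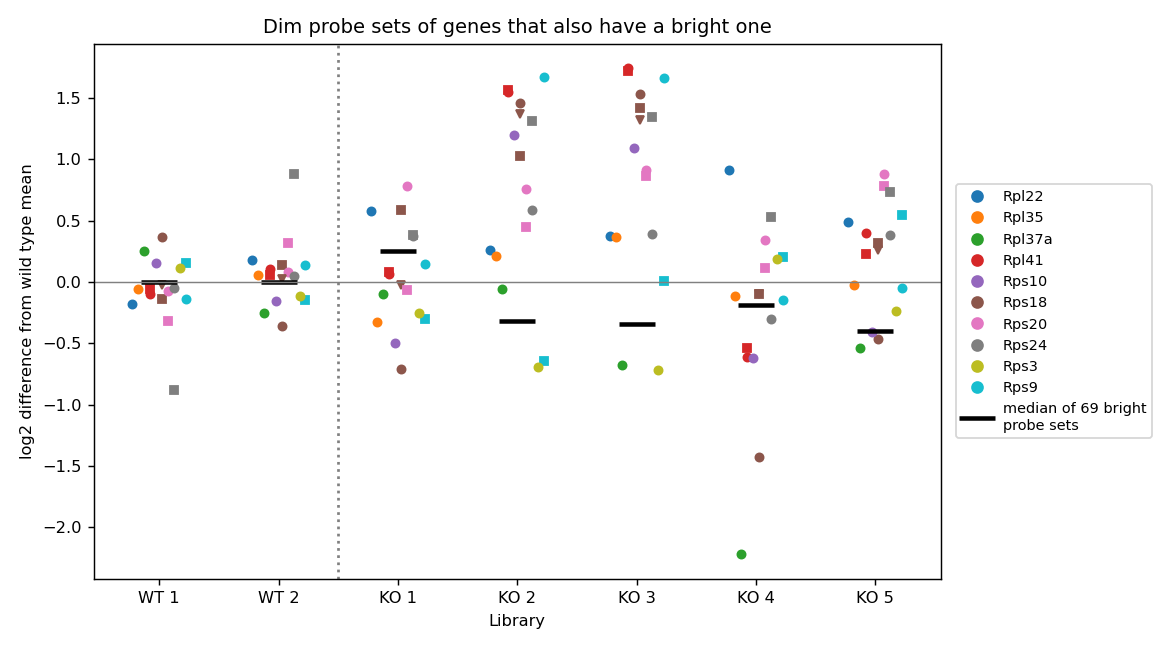
Difference from the wild type mean on the log2 scale, in each library, of the 16 dim probe sets (coloured by gene, 1 marker shape per probe set of a gene) that belong to 10 ribosomal protein genes with a bright probe set. Black bars are the median of all bright member probe sets. In knockout libraries 2 and 3 most dim probe sets lie above 0 while the black bars lie below it.

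Rps9 shows the pattern. Its bright probe set 1433689_s_at had signals of 22267 and 20749 in wild type and 25062, 16359, 15763, 18236 and 14779 in knockout libraries. Its dim probe set 1426958_at had 596 and 725 in wild type and 728, 2133, 2122, 593 and 635 in knockout libraries. In libraries 2 and 3 the dim probe set was about 3 times its wild type level, while the bright one was below both wild type signals. For Rpl41, the dim probe set 1454639_x_at had 972 and 1050 in wild type and 1067, 3030, 3368, 688 and 1184 in knockout libraries, against -0.13 ± 0.24 for its bright probe set. For Rps10, a small subunit protein, the dim 1436384_at had 301 and 240 in wild type and 184, 641, 595, 168 and 198 in knockout libraries. Exceptions were the dim probe sets 1434624_x_at of Rps9, 1455600_at of Rps3 and 1416218_x_at of Rpl37a, with 1619 and 1593 in knockout libraries 2 and 3 for Rps3 against 2850 and 2429 in wild type.

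In 2 of the 16 dim probe sets all knockout signals were above both wild type signals, against 6.41% of all tested genes. The probe set 1421935_at of Rps20 had 171 and 192 in wild type and 327, 319, 359, 235 and 351 in knockout libraries, a difference of 0.73 (limma adjusted p = 0.575), while the bright probe set of Rps20 differed by 0.003. The probe set 1448398_s_at of Rpl22, a large subunit protein whose loss mice survive, had 1940 and 2499 in wild type and 3306, 2644, 2866, 4164 and 3094 in knockout libraries, a difference of 0.52, against -0.17 for its bright probe set. The ratio of the 3' to the 5' control probe sets of Actb, a sign of RNA integrity and labelling, was 1.46 and 2.08 on the log2 scale in wild type and 1.53, 0.79, 0.89, 1.94 and 1.68 in knockout libraries, so it was lowest in libraries 2 and 3. The part of RNA integrity in these differences was not tested.

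The genes that build ribosomes had a median further below 0 than the ribosomal protein genes, and it stayed there after quantile normalization. The biogenesis genes were also dimmer, with a median wild type signal of 3359 against 20905. Quantile normalization brings the level of the brightest genes close to equal by construction, and the part of brightness was not tested. Among 68 tested factors of ribosome biogenesis, of 69 listed, limma called 0, with 14 at an unadjusted p under 0.05, against 8.06% of all genes. The median difference was -0.41, also -0.41 after quantile normalization, with 57 below 0. In 23 of the 68 all knockout signals were below both wild type signals, against 7.44% of all genes. The medians in knockout libraries 1 to 5 were -0.21, -0.72, -0.78, -0.16 and -0.22, and without libraries 2 and 3 the median difference was -0.19 with 49 below 0. Pes1, a factor of the complex that matures the large subunit RNA, had signals of 5041 and 3462 in wild type and 2441, 1404, 1342, 3030 and 2437 in knockout libraries, a difference of -1.04 ± 0.37 (limma adjusted p = 0.589). It was chosen after its values were seen. Npm1 and Ncl, nucleolar proteins and the brightest of the list, differed by -0.12 ± 0.21 and -0.19 ± 0.26 and were highest in knockout library 1, as the bright ribosomal protein genes were.

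Other lists gave 0 calls as well. For the counts below, the shares over all genes were 8.06% at an unadjusted limma p under 0.05 and 50.3% below 0. Of 15 tested RNA polymerase I genes (19 listed), which transcribe the ribosomal RNA, 10 were below 0 with a median of -0.36, or -0.10 without knockout libraries 2 and 3, and 2 had an unadjusted limma p under 0.05. The brightest, Polr1d and Polr1c, differed by -0.30 and -0.43. Of 17 tested elongation factors and other TOP mRNAs (18 listed), 13 were below 0, and none had an unadjusted p under 0.05. Their median was -0.20, or -0.02 after quantile normalization and -0.06 without knockout libraries 2 and 3. By library, their medians were 0.26, -0.43, -0.42, -0.14 and -0.19 in knockout libraries 1 to 5, positive only in library 1, as in the ribosomal protein family. The brightest were Eef1a1, the factor that brings aminoacyl-tRNA, at -0.16, and Tpt1 at -0.20. Of 17 regulators of TOP mRNAs (18 listed), 7 were below 0 with a median of 0.04 (-0.03 without those libraries) and 1 at an unadjusted p under 0.05, and the brightest were Eif4ebp1 at -0.16 and Cnbp at -0.35. Of 12 chaperones and import factors of ribosomal proteins (14 listed), 10 were below 0 with a median of -0.31, but 0.01 without knockout libraries 2 and 3, and 1 was at an unadjusted p under 0.05. Xpo1 and Ipo5, the brightest, differed by -0.01 and -0.41. Among 6 tested genes of the p53 response to free ribosomal proteins (9 listed), 2 were below 0, the median was 0.13, or 0.24 without knockout libraries 2 and 3, and 1 was at an unadjusted p under 0.05. The brightest were Ccng1, a p53 target, at 0.47 and Nop53 at -0.54.

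A further 6 genes, of 12 listed, encode ribosomal proteins or relatives that the naming rule leaves out. Their median was -0.25 (-0.12 without knockout libraries 2 and 3), with 0 calls and none at an unadjusted p under 0.05. By library, their medians were 0.26, -0.40, -0.46, -0.24 and -0.33 in knockout libraries 1 to 5. Rps3a1, a small subunit protein, had 25926 and 27794 in wild type and 31873, 21342, 20981, 23540 and 21738 in knockout libraries, a difference of -0.19 ± 0.20, with library 1 above both wild type signals and the other 4 below them. Fau, the precursor of a small subunit protein, differed by -0.31 ± 0.25. Rpl7l1 and Rsl24d1, assembly factors named for their likeness to large subunit proteins and chosen here after their values were seen, differed by -0.84 ± 0.39 and -0.83 ± 0.50 with all knockout signals below both wild type signals.

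Other multi-protein families gave more negative medians. The 76 mitochondrial ribosomal protein genes, which serve translation inside mitochondria, had a median of -0.43 with 68 below 0, or -0.40 after quantile normalization, and 23 had all knockout signals below both wild type signals. The 46 tested translation initiation factor genes had -0.36 with 34 below 0, or -0.23 after quantile normalization. The 39 tested proteasome subunit genes had -0.54 with 37 below 0, or -0.37 after quantile normalization, and 15 had all knockout signals lower. Without knockout libraries 2 and 3 these medians were -0.24, -0.12 and -0.23, against -0.11 for the cytosolic family. Limma called 0 genes in each of these 3 sets, with 12, 7 and 7 at an unadjusted p under 0.05, where all genes gave 8.06%, and the share of all genes with all knockout signals lower was 7.44%. These sets were also dimmer, with median wild type signals of 2698, 6026 and 7160 against 20905 for the cytosolic family. Neither the difference between the cytosolic family and these sets nor the part of brightness in it was tested.

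**Figure D4:**
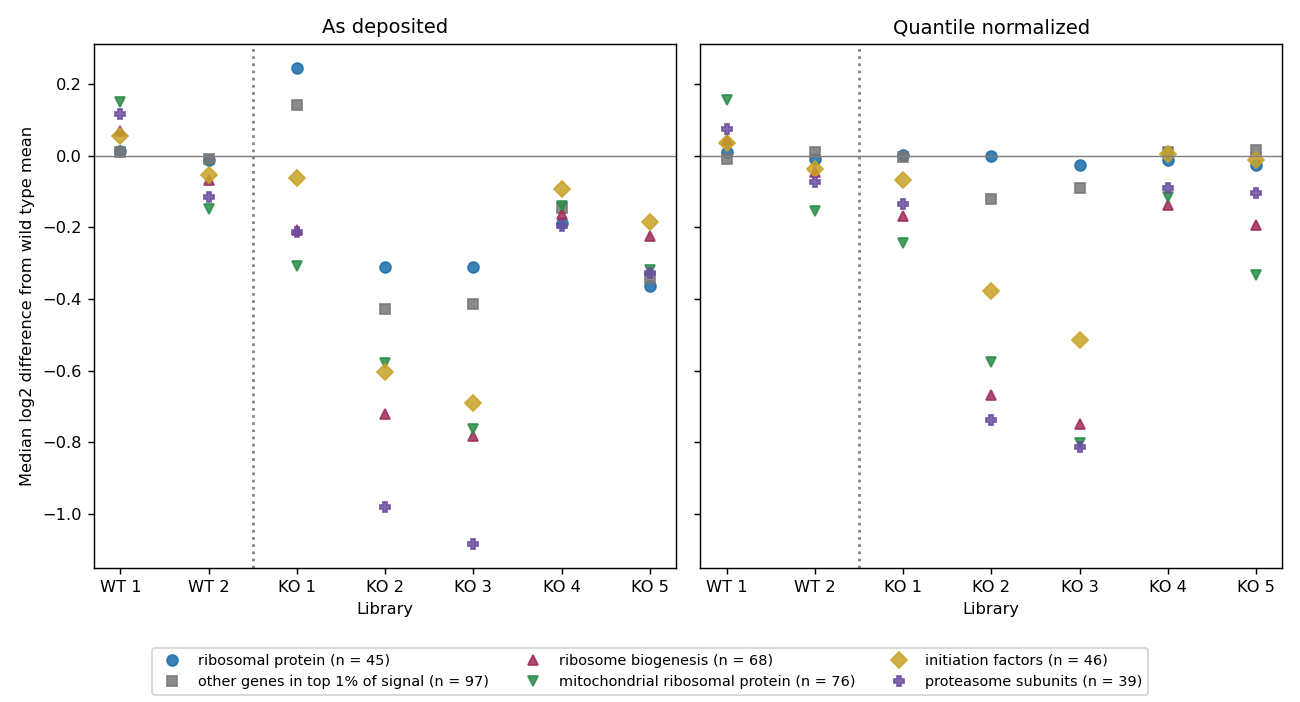
Median log2 difference from the wild type mean in each library for the 45 ribosomal protein genes, the 97 other genes above the 99th percentile of signal, and 4 other gene sets, as deposited (left) and after quantile normalization (right). Of the sets shown, only the ribosomal protein genes and the other bright genes lie above 0 in knockout library 1 on the left. The ribosomal protein genes lie near 0 in all libraries on the right.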

How the data were processed

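The deposited table holds 1 intensity per probe set and library, made by the authors with MAS5 (named in the submitters' processing notes, without a version). The trimmed mean of the deposited intensities was 500.0 on every array, so each signal is relative to its own array. Signals were converted to log2(signal + 20.2), the added value being the 20th percentile of all signals. Without 64 control probe sets, 27022 probe sets were tested, those whose mean on this scale exceeded its 40th percentile, with limma 3.58.1 in R 4.3.3 (trend in eBayes, two-sided, Benjamini-Hochberg adjusted p under 0.05 over the whole table). A gene was its brightest tested probe set with 1 symbol, giving 13120 genes. The number of arrays limits the precision.

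Libraries were grouped by title. The members and gene lists were chosen with earlier results of these data known. Genes were named by rule: any called member, the 4 highest and 4 lowest differences in each subunit, the 4 brightest and 4 dimmest members, members whose groups do not overlap, the 5 whose probe sets differ most, stalk genes, 5S partners, Rpsa, Rps6, X-linked genes, paralogs, the 2 brightest genes of each list, and Calr. Names outside this rule are marked in the text. The brightness limits of 13 and 12 were also chosen after seeing the data.

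Alternatives changed the pseudocount, filter, normalization, variance model, array weights, replicate block, choice of probe set and libraries included. The limma fit was tested on simulated data. The replicate numbers of the titles do not pair the libraries, since only 2 numbers are shared.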

Additional observations from a re-analysis of the deposited data

Results flagged for a closer look

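In 28 sets of 5 knockout values drawn from the named genes and family medians, the highest or lowest library was tested for its distance from the others against Dixon's critical value of 0.71 for 5 values, and 3 sets passed it. Chance flags about 1 in 20 such sets, and the sets share libraries. The 3 flagged sets are also nested, as Rps18 is a small subunit gene and that subunit is part of the family. They are therefore not 3 separate results. In each case knockout library 1 was high. The signal of Rps18 was 35690 there, with a gap to the next library of 0.726 of the range. The median over all ribosomal protein genes was 0.25 above the wild type mean there (0.711 of the range), and that over the small subunit genes was 0.25 (0.734 of the range).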

How the results depend on the processing

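No ribosomal protein gene or probe set was called under any alternative. For the 24 named members, 477 values under 20 alternatives included none past the threshold, with a lowest limma adjusted p of 0.264. The family median ranged from -0.30 (median centring, which moves the median of all genes to -0.12) to -0.01 (quantile normalization), the large subunit median from -0.32 to -0.03 and the small subunit median from -0.26 to 0.01. Leaving out 1 library at a time gave family medians of -0.30 (without knockout library 1) to -0.13 (without knockout library 5). Among bright members only it was -0.19, and over the several-symbol probe sets it was -0.18.

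The replicate block gave 15 called probe sets against 8 and 42 called genes against 2. Its family, large and small subunit medians were -0.02, -0.05 and 0.01. Numbers 3 to 5 occur only among knockout libraries, so with the block the difference rests on libraries 1 and 2 of each group. The deviations of same-numbered libraries correlated at 0.11 for number 1 and -0.01 for number 2, and the numbers do not pair the samples. With the block the differences of Rps24, Rps29, Rps18, Rpl41, Rplp0 and Rps4x were 0.076, 0.055, 0.0043, 0.11, 0.045 and 0.021.

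Signs of named members also turned elsewhere; the cause was not tested. Quantile normalization gave Rpl39 -0.10, Rps27l 0.16, Rps24 0.16, Rps29 0.046, Rpl41 0.048, Rplp0 0.033 and Rps4x 0.067. Median centring gave Rpl39 -0.10, Rpl39l -0.026 and Rps20 -0.12. Averaging a gene's probe sets gave Rps9 0.11, Rps24 0.21, Rps18 0.10 and Rpl41 0.20, and leaving out _s_at and _x_at probe sets gave Rps9 0.66, Rps24 0.86 and Rpl41 0.63. Knockout libraries 2 and 3 as a batch term, or left out, gave Rpl39 -0.070, Rpl12 -0.11 and Rps24 0.030 each. Array weights gave Rpl39 -0.040. Leaving out 1 library at a time gave ranges of -0.51 to 0.70 for Rpl39l, -0.17 to 0.20 for Rpl39, -0.093 to 0.050 for Rps20 and -0.13 to 0.044 for Rps24.

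The count of called probe sets over the whole table was 4 with a filter at the 60th percentile, 5 with no filter, 5 without knockout libraries 2 and 3, and 0 to 7 when 1 library was left out (0 when either wild type library was left out, 4 without knockout library 1, and 5 without number 4 or 5). The Calr difference then ranged from -3.78 to -3.52, and its limma adjusted p was 0.254 and 0.129 without the first and the second wild type library. With 2 wild type libraries and signals that are relative to each array's own scale, a common shift of the brightest genes has limited precision.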
